A study of Mus musculus with 6 samples.

Results

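The genes described here encode the proteasome, the protease complex that degrades ubiquitin-tagged proteins, together with the genes named after it, in the adrenal gland of mice with and without the neuropeptide PACAP. They were chosen by symbol: Psma, Psmb, Psmc, Psmd, Psme, Psmf or Psmg followed by a digit. The rule found 101 of the 35970 cDNA clones on the array, which belonged to 48 of 11837 named genes. Of these, 94 clones of 47 genes were measured on at least 4 of the 6 arrays and were tested. The 7 untested clones include the only clone of Psmb8. Psmb9 had no clone of its own, because its 1 probe was also annotated to another gene. Another 9 clones carried a proteasome title in the scanner files but were annotated to another gene (5) or to no listed gene (4), and were not counted.

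Each of 6 spotted cDNA arrays carried adrenal total RNA of PACAP +/+ mice, labelled with Cy5 (red), and of PACAP -/- mice, labelled with Cy3 (green). All mice were of the F2 generation of a 129XC57BL6 cross. The labels give no age, sex or description of the deleted allele, and they call the arrays repeats without stating that each held separate animals, so a p-value here reflects the scatter among arrays, part of which may be technical. Knockout RNA carried Cy3 on every array, so a dye effect particular to a clone and a genotype effect cannot be told apart.

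The barrel-shaped 20S core holds the proteolytic sites on its beta subunits, and its alpha subunits form the gate through which substrates enter. The 19S regulatory particle caps the core: its base has a ring of ATPases that unfold substrates, and its lid removes the ubiquitin chain. Dedicated chaperones assemble both particles, activators of the PA28 and PA200 kinds can replace the 19S cap, and interferon induces alternative catalytic subunits. Chromaffin cells of the adrenal medulla receive PACAP from the splanchnic nerve, and the comparison asks how adrenal transcripts differ when it is missing.

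Few proteasome clones differed between the genotypes, and those that did went both ways. All ratios set knockout over wild type, as log2 values, and were normalised within each print block (the area printed by 1 pin) by print-tip loess. Among the 94 tested clones 7 were higher and 2 were lower in the knockout at an adjusted p under 0.05 (limma, Benjamini-Hochberg over all 28666 clones tested). That is 9.57% of the member clones, against 11.2% of all clones tested, of which 6.67% were higher and 4.55% lower. The share of member clones past the threshold was thus close to, and slightly under, that of the whole array. At an unadjusted p under 0.05 there were 24 member clones, or 25.5%, against 32.7% of all clones. Without array 1 there were 12 higher and 1 lower (13.7% of all clones passed), and without array 5 there were 6 and 3 (9.75% of all). None of the member clones passed when array 2, 3, 4 or 6 was left out, when their lowest adjusted p was 0.0731, 0.0755, 0.0622 and 0.0512 (limma). In these settings 1, 1, 19 and 1 clones of the whole array passed, so that the loss was not particular to proteasome genes.

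The median ratio of the member clones was 0.12, against -0.00 for all clones tested and 0.03 for clones with 1 named gene. Of the 94 clones 73 (77.7%) lay above 0, against 49.7% of all clones and 55.6% of those with 1 named gene. With global loess, which ignores print position, the medians of member clones and of all clones were both 0.02, and 53.2% against 51.6% lay above 0. The small shift after print-tip loess was not seen on every array. The median over member clones was -0.04, 0.20, 0.07, 0.19, -0.02 and 0.14 on arrays 1 to 6, and the share above 0 was 43.6%, 75.6%, 61.3%, 68.2%, 46.5% and 66.7%. Arrays 2 and 4, where it was largest, had the lowest wild-type signal relative to local background: the median red signal was 1.32 and 1.11 times the local background, against 1.59 to 4.57 times on the other arrays. Without these arrays the median of the member clones was 0.05. The lowest median red signal itself was 179.4 on array 4, followed by 219.9 on array 6 and 256.8 on array 2. Over both channels the mean log2 signal had a median of 8.55 for member clones, against 8.82 for all clones tested. Whether weak red signal contributes to the shift was not tested.

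Arrays 2 and 4 also resembled each other over the whole array. Their ratios correlated with r = 0.82 across clones, and those of the other pairs with 0.19 to 0.66. Of the 12 listed marker genes of the medulla 8 had tested clones, and of the 12 of the cortex 7. Being tested does not show that a tissue was present, since markers of other cells were tested too. The median signal percentile of the marker clones was 86.9 for the medulla and 86.1 for the cortex. The 1 kidney clone was at 85.8, so that signal did not set adrenal and kidney markers apart. The remaining marker lists had medians of 64.5 or lower. In the knockout 5 of 11 medulla clones and 4 of 11 cortex clones were higher, with 1 and 0 lower. That is 54.5% and 36.4% called, against 11.2% of all clones. The medulla genes with the largest ratios past the threshold were the granule proteins Scg2 (0.89 ± 0.19 SE), Chga (0.83 ± 0.16) and Chgb (0.70 ± 0.12). Those of the cortex were the steroid genes Hsd3b1 (1.40 ± 0.31), Scarb1 (0.85 ± 0.21) and Nr5a1 (0.62 ± 0.14). Medulla clones ran from -0.46 to 0.89, with 8 of 11 above 0, and cortex clones from -0.01 to 1.40, with 10 of 11 above 0. Scarb1 did not pass with global loess (0.28; limma adjusted p = 0.292). In RNA of a whole gland, a change in the number of cells of a type and a change in RNA per cell cannot be told apart. The part of cell makeup in the ratios of proteasome genes was not tested. Among markers of other cells, 0 of 1 kidney, 0 of 2 adipocyte, 0 of 4 skeletal muscle and 0 of 4 lymphocyte clones passed, and 1 of 8 macrophage clones did (C1qb, 0.88 ± 0.22). Adcyap1, the targeted gene, had 1 clone, measured on 2 arrays with ratios of -0.07 and -0.04, which was not tested and gave no check of the labels.

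Promoters of member genes were searched for 3 motifs: the antioxidant response element core TGACNNNGC, the CCAAT box CCAAT and the core GCATGCGC of nuclear respiratory factor 1 (NRF1, not the NFE2L1 protein of the same short name, which binds the antioxidant element), each on both strands. The sequences are from RefSeq (GRCm38.p6) and hold 250 bases before and 50 bases after the start of the gene; 41 of the 48 member genes had one. The antioxidant element was found in 6 of 41 (14.6%) against 3781 of 27025 genes with a promoter, the CCAAT box in 15 (36.6%) against 41.1%, and the NRF1 core in 3 (7.32%) against 3.05%. Of 14 core and 14 regulatory genes, 2 and 2 held the antioxidant element, 7 and 4 the CCAAT box, and 1 and 1 the NRF1 core. A match describes letters only and is no measure of binding. Windows of 100 bases, cut around a match from the 250 bases before the start, are shown for the 3 called subunit genes with a match there. They are also shown for 3 genes with the antioxidant element and no call. The match is in capitals, 5′ to 3′ on the strand of the gene. Relative to the start, the matches begin at -196 (Psma7), -28 (Psmc2), -247 (Psmd12), -47 (Psmb5), -9 (Psmb6) and -227 (Psmc6). Psma7 and Psmc2, with clones that rose, hold a CCAAT box, in Psmc2 before the start shown but not before its other listed start. Psma1, Psmb3, Psmd4 and Psmd14, with no clone past the threshold, hold a CCAAT box as well. Psmd12, with a clone that fell, and Psmb5, Psmb6 and Psmc6, with none past the threshold, hold the antioxidant element, so that genes with the same element had clones on different sides of the threshold. The promoters of Psmd2, Psmd6 and Psmd11, which also had a called clone, hold none of the 3 motifs. Whether a motif goes with the direction of a ratio was not tested.
Psma7 (chr2:180042609-180042708, minus strand): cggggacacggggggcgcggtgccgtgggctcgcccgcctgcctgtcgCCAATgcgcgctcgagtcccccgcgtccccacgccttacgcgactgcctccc
Psmc2 (chr5:21785175-21785274, plus strand): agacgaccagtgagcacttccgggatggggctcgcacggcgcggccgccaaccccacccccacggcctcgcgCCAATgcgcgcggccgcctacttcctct
Psmd12 (chr11:107479278-107479377, plus strand): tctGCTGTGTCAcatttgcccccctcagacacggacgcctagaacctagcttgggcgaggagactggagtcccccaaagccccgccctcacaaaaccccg
Psmb5 (chr14:54617996-54618095, minus strand): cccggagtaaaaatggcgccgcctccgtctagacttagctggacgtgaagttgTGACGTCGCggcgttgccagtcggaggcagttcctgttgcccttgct
Psmb6 (chr11:70525257-70525356, plus strand): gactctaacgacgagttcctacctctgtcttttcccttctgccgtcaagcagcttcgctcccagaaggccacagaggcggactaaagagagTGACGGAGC
Psmc6 (chr14:45329574-45329673, plus strand): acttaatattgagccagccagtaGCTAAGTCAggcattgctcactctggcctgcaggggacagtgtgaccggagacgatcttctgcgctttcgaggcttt

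The alpha subunits of the 20S core had 19 tested clones of 7 genes, with a median ratio of 0.15. Of these 1 was higher and none lower (5.26%, against 11.2% of all clones). The clone that rose was AI837320, annotated to Psma7. Its ratio was 0.55, 2.21, 0.84, 1.86, 0.01 and 0.38 on arrays 1 to 6. All values lay above 0, but arrays 2 and 4 stood far above the rest, at a mean of 2.03 against 0.45 on the other arrays. The mean was 0.97 ± 0.26 (SE, n = 6; limma adjusted p = 0.0419), or 1.97-fold. The other 4 clones of Psma7 were at 0.16, 0.19, 0.26 and 0.27 and did not pass. The scanner files give clone AI837320 no title, so that its identity rests on the probe annotation alone. The Psma7 clone at 0.16 is titled there as weakly similar to a tetrahydrofolate synthase. Some clones of other members, such as a Psmc2 clone at 0.31, have no title either. Beside Psma7, the largest alpha ratios were those of a pair of Psma2 clones, at 0.42 ± 0.13 (limma adjusted p = 0.0655) and 0.30 ± 0.12, and the lowest was that of a Psma6 clone at -0.25 ± 0.08 (limma adjusted p = 0.0764). None of these passed the threshold.

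No clone of the constitutive beta subunits passed the threshold, where 11.2% of all clones did. The 13 clones of 7 genes lay between -0.13 and 0.39, with a median of 0.13. They are too few to set a count of 0 apart from that share. The 3 that carry the active sites were examined array by array. Psmb5, with the chymotrypsin-like site and the antioxidant element in its promoter, had ratios of -0.02, 0.12, -0.16, -0.03, -0.08 and 0.42 for clone AW557943, which scattered around 0. Its clone AI848457 gave -0.17, 0.15, 0.14, 0.36, -0.12 and -0.22, with as many values above 0 as below. Their means were 0.04 ± 0.09 and 0.02 ± 0.09 (SE, n = 6 each).

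Psmb6, with the caspase-like site, was measured by 1 clone at -0.14, 0.32, 0.42, 0.23, 0.23 and 0.28. Array 1 alone lay below 0, and the mean of 0.22 ± 0.09 did not pass (limma adjusted p = 0.11). Psmb7, with the trypsin-like site, gave 0.16, 0.55, -0.12, 0.46, -0.02 and -0.02 for clone AW538330. Arrays 2 and 4 were again the highest, and the mean was 0.17 ± 0.10. Its clone AI852729, unmeasured on array 2, gave -0.13, 0.10, 0.65, -0.24 and 0.23 on arrays 1, 3, 4, 5 and 6, with a mean of 0.12 ± 0.13. Of the alternative subunits, Psmb10, which takes the place of Psmb7 in the immunoproteasome, was at -0.08, -0.02, -0.34, 0.07, -0.14 and -0.15. Its values lay close to 0 with 5 of 6 below it, at a mean of -0.11 ± 0.08 (limma adjusted p = 0.352). Psmb11, the catalytic subunit of the thymus, was at -0.01 ± 0.08.

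The 6 ATPases of the 19S base had 12 tested clones, of which 1 was higher and none lower (8.33%, against 11.2% of all clones). The median was 0.17, and 11 of the 12 lay above 0. Clone AI840715 of Psmc2 (Rpt1) gave 0.16, 1.31, 0.44, 0.87, 0.20 and 0.32. Each array was above 0, with arrays 2 and 4 the highest, and the mean was 0.55 ± 0.15 (limma adjusted p = 0.0418). The other Psmc2 clone was at 0.31 ± 0.12 and did not pass (limma adjusted p = 0.112). Psmc6 (Rpt4), the next in size and also with an antioxidant element upstream, had a ratio of 0.36 ± 0.13 (limma adjusted p = 0.0839). The lowest was 1 of 3 Psmc3 clones, at -0.22 ± 0.07, while the other Psmc3 clones were at 0.19 and 0.25.

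Of 6 clones of the non-ATPase base subunits Psmd1, Psmd2 and Psmd4, 1 was higher and none lower (16.7%, against 11.2% of all clones). The median was 0.12. Psmd2 (Rpn1), a scaffold that docks ubiquitin receptors, was measured at 0.02, 1.13, 0.63, 0.90, 0.21 and 0.62 by clone AW537694. All arrays were above 0, with array 1 barely so, and the mean was 0.59 ± 0.14 (limma adjusted p = 0.0336). The other Psmd2 clone was at 0.03 ± 0.08. Psmd4 (Rpn10), a ubiquitin receptor, had 3 clones between 0.11 and 0.15, and Psmd1 (Rpn2) had 1 at 0.01.

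Of 18 clones of 8 genes of the lid 2 were higher and 2 lower (22.2%, against 11.2% of all clones), with a median of 0.14. Psmd3 (Rpn3) rose, with ratios of 0.45, 0.49, 0.45, 0.35, 0.35 and 0.70 for clone AI851124. This was the one higher clone whose ratio on arrays 2 and 4 (mean 0.42) was not above that on the other arrays (mean 0.49). The mean over all arrays was 0.47 ± 0.08 (limma adjusted p = 0.0249), while the other Psmd3 clone was at -0.10 ± 0.08. The red signal of clone AI851124 was low, at 0.81 to 3.22 times the local background over the arrays. Psmd11 (Rpn6), which clamps the regulatory particle to the core, was measured by clone AI840225 at 0.01, 1.40, 0.54, 1.49, 0.17 and 0.68. Its values on arrays 2 and 4 exceeded all others, and the mean was 0.71 ± 0.19 (limma adjusted p = 0.042). The second Psmd11 clone was at 0.33 ± 0.11, above 0 on 6 of 6 arrays, and did not pass (limma adjusted p = 0.0762).

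A clone each of Psmd6 (Rpn7) and Psmd12 (Rpn5) fell. Clone AU016359 of Psmd6 gave -0.37, -0.29, -0.32, -0.30 and -0.27 on arrays 1, 2, 3, 4 and 6, and had no value on array 5. These values lay close together, all below 0, with a mean of -0.31 ± 0.08 (limma adjusted p = 0.0411). The other Psmd6 clone pointed the opposite way, at 0.29 ± 0.10 with 5 of 5 arrays above 0 (limma adjusted p = 0.0804). Clone AU043387 of Psmd12, the one called gene with the antioxidant element printed above, gave -0.50, -0.44, -0.26, -0.41, -0.19 and -0.32, again all below 0, with a mean of -0.35 ± 0.08 (limma adjusted p = 0.0299). The other Psmd12 clones were at 0.03 and 0.14, so that the fall was seen in 1 of 3. Psmd14 (Rpn11), the deubiquitinase of the lid, was at 0.01 and 0.17. Psmd8 (Rpn12) had a pair of clones at 0.35, the lower adjusted p being 0.056 (limma).

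**Figure D1:**
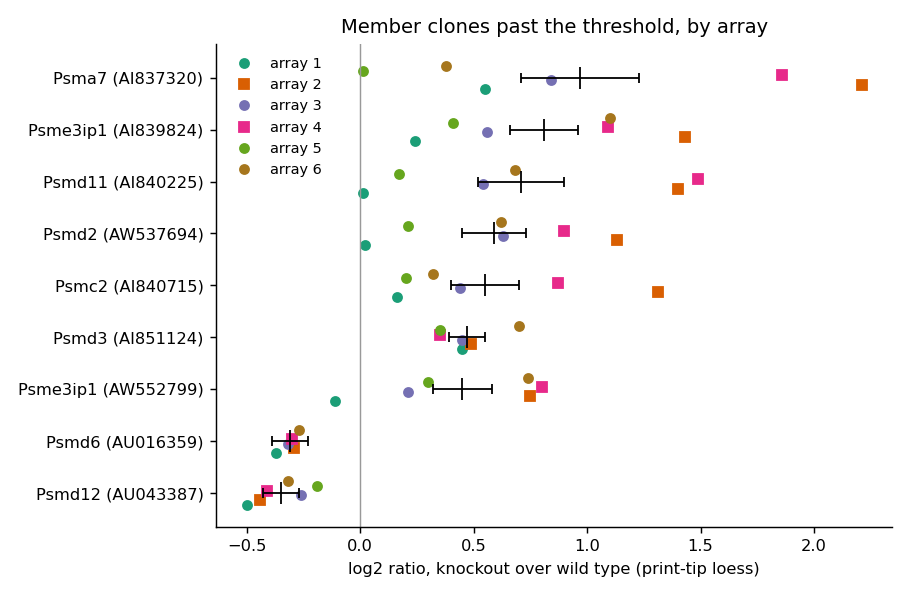
Log2 ratio of knockout over wild type after print-tip loess (x axis) on each array for the 9 member clones past the threshold (y axis, gene and clone); squares are arrays 2 and 4, circles the other arrays, and the black mark with bars is the mean ± SE. The squares lie to the right of most circles in 6 of the 7 higher clones, while the values of Psmd3, Psmd6 and Psmd12 lie close together.

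None of the assembly chaperones, activators or inhibitors passed the threshold, where 11.2% of all clones did. Each class had at most 7 tested clones, so that little can be read from these zeros. The 19S chaperones Psmd5, Psmd9 and Psmd10 had 7 clones between -0.13 and 0.10 with a median of -0.03, the lowest median of the constitutive classes. The 20S chaperones Psmg1 to Psmg4 had 4 clones between -0.07 and 0.31, of which Psmg1 was the highest. The activators Psme1 (PA28 alpha), Psme3 (PA28 gamma), Psme4 (PA200) and Psme2b had 7 clones between -0.08 and 0.14. The Psme2b clone carries the title of PA28 beta, and a cDNA clone may not separate Psme2 from that near-identical copy. A clone of the inhibitor Psmf1 (PI31) was above 0 on 6 of 6 arrays, as were 11.8% of all clones measured on 6. Its mean was 0.22 ± 0.10 (limma adjusted p = 0.178), against -0.31 with global loess. The other Psmf1 clone, at 0.11, -0.12 and -0.47 on arrays 1, 3 and 6, was not tested.

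Of the genes that share the prefix but encode no subunit, Psme3ip1, which binds the activator PA28 gamma, rose in both of its tested clones. Clone AI839824 gave 0.24, 1.43, 0.56, 1.09, 0.41 and 1.10, and clone AW552799 gave -0.11, 0.75, 0.21, 0.80, 0.30 and 0.74. Arrays 2, 4 and 6 were the highest for both, and array 1 the lowest. The means were 0.81 ± 0.15 (limma adjusted p = 0.0256) and 0.45 ± 0.13 (limma adjusted p = 0.048). Psme3ip1 was the 1 gene with more than a single clone called the same way. The 3 clones of Psmc3ip, a recombination factor of meiosis, were at -0.23, 0.00 and 0.07. Without these genes, 5 member clones were higher and 2 lower (7.87%, against 11.2% of all clones).

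**Figure D2:**
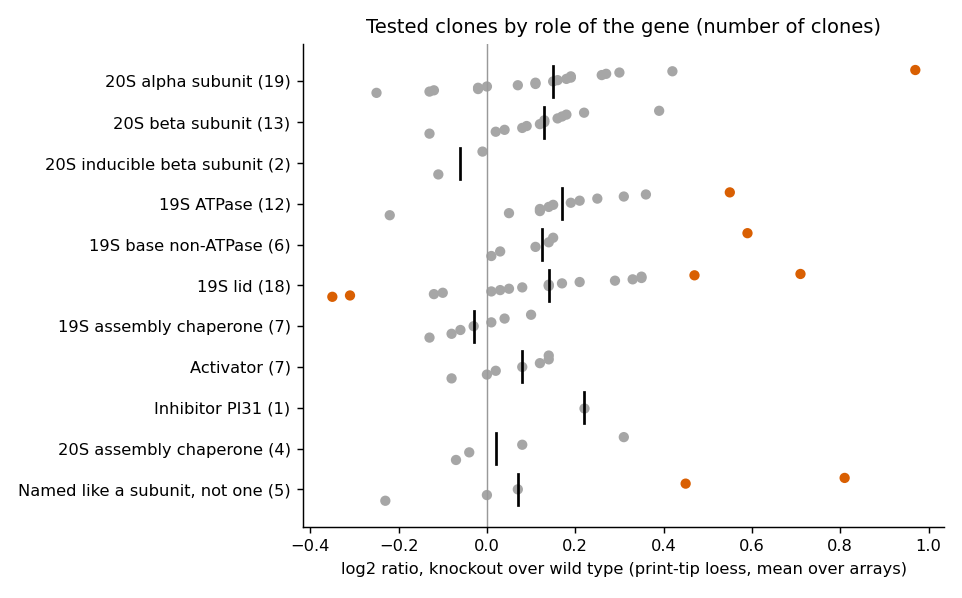
Mean log2 ratio of knockout over wild type after print-tip loess (x axis) for each of the 94 tested clones, by role of the gene (y axis, number of clones in brackets); orange points passed the threshold, grey points did not, and black bars are medians. Medians of the subunit classes lie between 0.12 and 0.17, except for the inducible beta subunits at -0.06, and the 9 orange points lie in 5 of the 11 classes.

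Core and regulatory subunits were then set against each other. The core (Psma and Psmb) had 34 tested clones, of which 1 (2.94%) passed, and the 19S subunits had 36, of which 6 (16.7%) passed, against 11.2% of all clones. Their mean ratios overlapped on the arrays. The mean of the core was -0.02, 0.29, 0.13, 0.33, -0.06 and 0.13 on arrays 1 to 6, and that of the regulatory particle 0.01, 0.29, 0.10, 0.27, 0.03 and 0.26. Both were near 0 on arrays 1 and 5 and highest on arrays 2 and 4. The difference of core minus regulatory was -0.03 ± 0.07 (SD over 6 arrays) and ran from -0.13 to 0.07, so that it was smaller than its spread.

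With global loess the picture differed. The core minus regulatory difference was then -0.18 ± 0.10 (SD) and below 0 on 6 of 6 arrays, from -0.34 to -0.07. Of the core clones 2 were higher and 5 lower (20.6%), and of the regulatory clones 11 were higher and 3 lower (38.9%). Among all clones tested 30.4% passed with global loess, 16.2% higher and 14.2% lower. The print blocks of the core clones had a mean of -0.04 and those of the regulatory clones a mean of 0.05 over all spots, a gap in the same direction. Print-tip loess reduced the difference between the particles to a size within its spread.

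**Figure D3:**
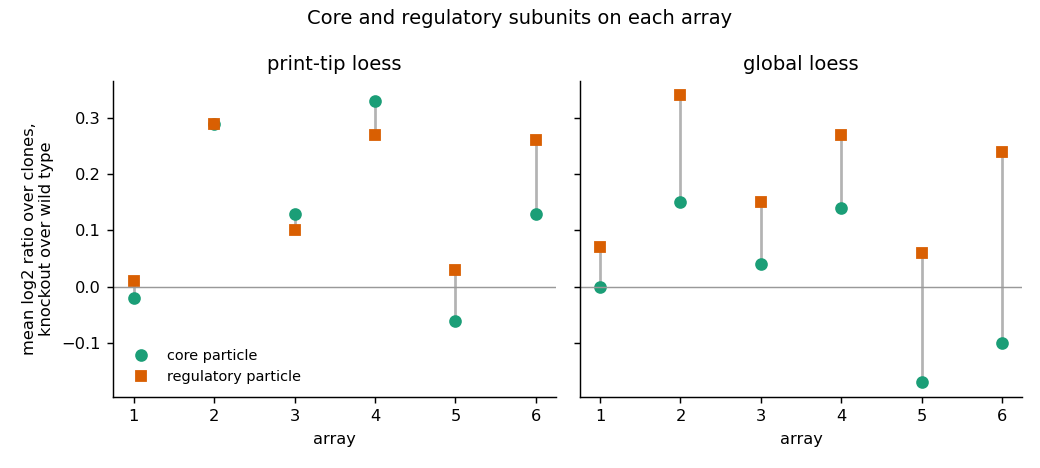
Mean log2 ratio of knockout over wild type over core clones (green circles) and 19S regulatory clones (orange squares) on each array (x axis), after print-tip loess (left) and global loess (right); grey lines join the means of an array. On the left the order of the particles varies between arrays and both means stay between -0.06 and 0.33, whereas on the right the core lies below the regulatory particle on all 6 arrays.

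The ratios of single members with global loess also differed by print position. Whether printing or the choice of clones in a block lies behind this was not tested. After global loess the mean ratio of a print block ranged from -0.57 to 0.56, and blocks accounted for 46.9% of the variance over spots. Print-tip loess centres each block, which by construction leaves almost none of that variance (0.0614%). Global loess called 15 member clones higher and 14 lower, or 30.9%, against 30.4% of all clones (16.2% higher and 14.2% lower). Of the 22 member clones printed in blocks 1 to 8, global loess called 0 higher and 12 lower, and print-tip loess 1 higher and 1 lower. All clones printed there had 50.0% called by global loess, against 54.5% of these members. Of the 32 printed in blocks 33 to 48, global loess called 11 higher and 0 lower, and print-tip loess 3 higher and 0 lower. All clones printed there had 30.4% called by global loess, against 34.4% of these members, so that the members followed their blocks. The global ratio of a member clone correlated with the mean of its block at r = 0.76 over the 94 clones, which share arrays and blocks, and the print-tip ratio at 0.02, which the centring of blocks leads to. Both normalisations called 7 clones, and 35 of the 94 had opposite signs under them.

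The 22 clones called by global loess alone give the same pattern by name. Psmb5 clone AW557943, in block 1, was at -0.60 with global loess against 0.04, and Psmb2 at -0.44 against 0.16. The Psma3 clones in blocks 5 and 1 were at -0.61 and -0.52 against -0.12 and 0.11, and Psma6 at -0.62 against -0.25. The Psme1 clones were at -0.57 and -0.42 against 0.02 and 0.08, and Psme2b at -0.42 against 0.14. All of these were printed in the low blocks.

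Members of the regulatory particle called by global loess alone lay on both sides. Psmd1, in block 48, was at 0.70 against 0.01 and Psmc6 at 0.86 against 0.36. Psmc3 had clones at 0.44 and 0.52 against 0.19 and 0.25, and another at -0.72 against -0.22, so that clones of 1 gene were called in opposite directions. Psmc5 was at 0.41 against 0.12, Psmd8 at 0.46 against 0.35, Psmd11 clone AW546071 at 0.77 against 0.33, and Psmd2 clone AW552131 at -0.51 against 0.03. Of the others, Psma7 clone AW536335 was at 0.45 against 0.19, Psme4 at 0.56 against 0.12, Psmd9 at -0.42 against 0.04, Psmd10 at -0.45 against -0.08 and Psmg4 at -0.50 against -0.04. Psmd12 clone AU043387 and Psme3ip1 clone AI839824 passed only after print-tip loess, at -0.35 and 0.81 against -0.14 and 0.34.

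**Figure D4:**
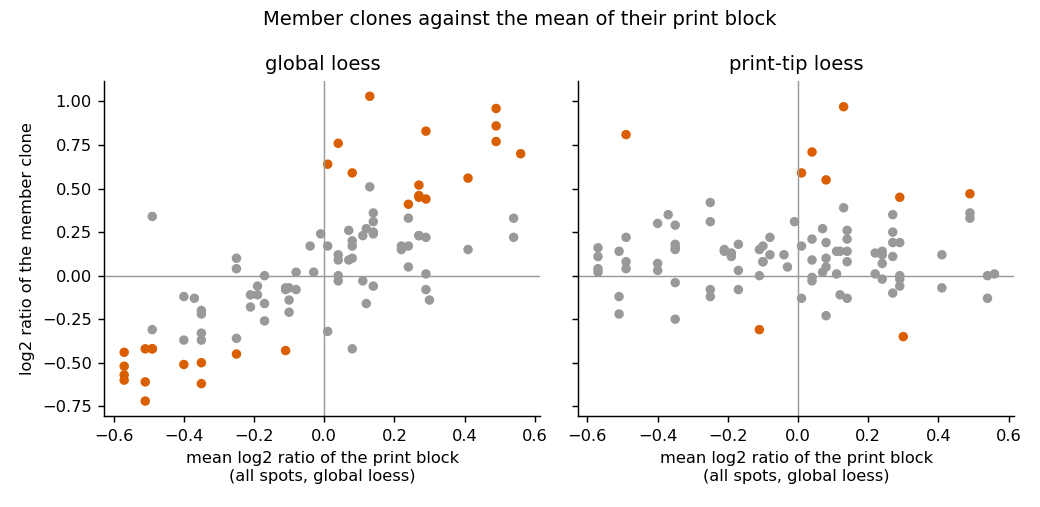
Log2 ratio of knockout over wild type of the 94 tested member clones (y axis) against the mean log2 ratio of all spots of their print block after global loess (x axis), with the clone's ratio from global loess (left) or print-tip loess (right); orange points passed the threshold. On the left the ratio is higher where the block mean is higher (r = 0.76), and on the right, where each block was centred, it is not (r = 0.02).

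Clones of the same gene gave a measure of repeatability. Of 33 genes with several tested clones, 12 (36.4%) had clones on both sides of 0, against 52.5% of 4875 such genes on the array. Member clones lay above 0 more often than all clones (77.7% against 49.7%), which by itself lowers the first share. The range between clones of a gene had a median of 0.23, against 0.25 for all genes, and was largest for Psma7, at 0.82. When all clones of a gene were averaged, 4 of 47 genes passed, all 4 higher, where 8.6% of all genes did. These were Psma7 at 0.39 ± 0.09 (limma adjusted p = 0.0400), Psmd2 at 0.31 (0.0476), Psmd11 at 0.52 (0.0478) and Psme3ip1 at 0.58 (0.0409). The Psmd2 mean did not pass with global loess (0.07, limma adjusted p = 0.632), where its clones were called in opposite directions. Psma7, Psmd11 and Psme3ip1 passed there as well. With global loess 6 genes were higher and 5 lower, where 26.7% of all genes passed. Of the 47 gene means after print-tip loess, 35 lay above 0.

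**Figure D5:**
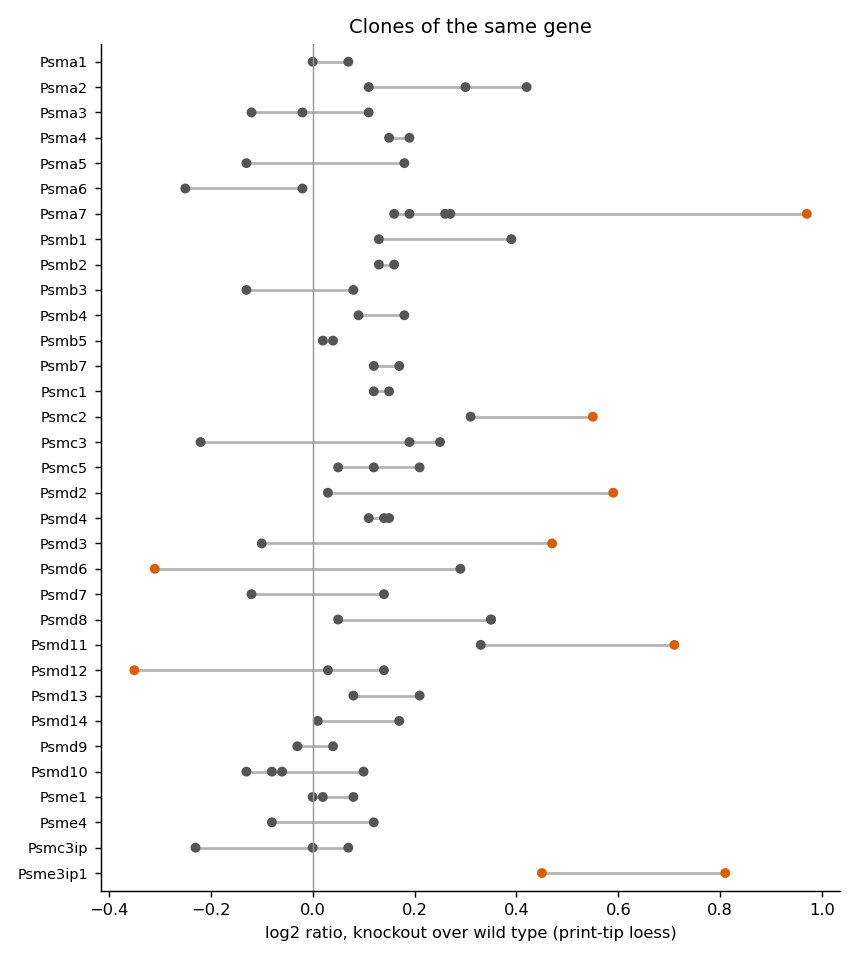
Mean log2 ratio of knockout over wild type after print-tip loess (x axis) of every tested clone of the 33 genes with several (y axis); a grey line joins the clones of a gene, and orange points passed the threshold. The called clones of Psma7 and Psmd2 lie apart from the other clones of their gene, and those of Psmd3, Psmd6 and Psmd12 lie on the other side of 0 from the rest.

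Genes that work with the proteasome under other symbols were read from lists. Of 35 clones of other subunits and cofactors 3 were higher and 1 lower, among them Zfand5, which activates the 26S complex, at 0.92 ± 0.18, the adaptor Ecpas at 0.48 ± 0.11 and the shuttle Ubqln2 at -0.38 ± 0.09. With global loess Ubqln2 was at 0.02 (limma adjusted p = 0.911). Of 10 clones of ubiquitin genes and E1 enzymes 2 were higher and 0 lower, namely 1 of 3 Nae1 clones (0.98 ± 0.28, the lowest at 0.00) and 1 of 4 Uba6 clones (0.62 ± 0.13, the lowest at -0.34). For p97, which extracts proteins for degradation, and its cofactors 3 of 24 clones were higher and 1 lower: Ube4b at 0.52, Ufd1 at 0.43 and Plaa at -0.38. Other clones reached -0.33 for Ube4b, -0.14 for Ufd1 and 0.01 for Plaa. With global loess Plaa turned to 0.18 (limma adjusted p = 0.27) and Ufd1, at 0.36, did not pass (limma adjusted p = 0.0892). The background of these counts is the 11.2% of all clones.

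Regulators of proteasome genes had 1 of 21 clones higher and 0 lower (4.76%, against 11.2% of all clones). It belonged to Nfe2l2, a factor that binds antioxidant response elements, at 0.87 ± 0.20 (n = 4 arrays; limma adjusted p = 0.0368). Its ratio was 0.50 with global loess and did not pass there (limma adjusted p = 0.0616). Of 12 interferon-induced clones 2 were higher and 1 lower (25.0%, against 11.2% of all clones), too few to read much from that share. These were Irf1 at 1.23 ± 0.27, B2m at 0.76 ± 0.17 and Ifit1 at -0.35 ± 0.08. The B2m ratio was 0.16 with global loess. Psmb10, itself an interferon-induced subunit, was at -0.11 in the same arrays.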

How the data were processed

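Per the labels, 6 arrays each compared 1 wild-type (Cy5) with 1 PACAP knockout (Cy3) adrenal RNA. The series' design text names a GenePix 4000A scanner, IPLab image analysis and a minimum ratio quality of 0.3; software versions are not given in the sources used here. The deposited intensity columns already had the background subtracted, and the authors' quality score lies between 0 and 1. The authors' value table holds deposited log2 ratios of red over green, with background subtracted again from those intensities, values under 1 raised to 1, and the calibrated ratio constant of each array divided out. Its scale and direction are thereby known; it is not centred, with medians of -0.10, -1.65, -0.84, -2.59, -0.67 and -1.10.

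Log2 ratios of green over red were computed from the intensities of spots with a quality above 0.3 (69.2% to 84.9% of 37632 spots), without 1152 control or empty spots, and normalised by print-tip loess (span 0.3). Spots of a clone were averaged and clones on at least 4 arrays tested with lmFit and eBayes (limma 3.58.1, R 4.3.3), checked on simulated data. Tables were made with Python 3.11.15 and pandas 2.3.3. Genes were named through the value table's probe annotation, which can be old, for 35793 of 35873 probes (99.8%) whose values matched 1 spot within 0.002; 22364 clones had 1 gene, 1105 several (not named) and 12501 none listed. Symbols were updated through RefSeq (GRCm38.p6).

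Members, lists and tests were chosen with earlier results of these data known, as was print-tip loess. Values by array are given for clones past the threshold and for catalytic subunits, clones called by global loess alone are given with both ratios, and at most 3 genes of each other list are named. Alternatives were other normalisations, the value table, other filters, array weights, gene means and arrays left out.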

Additional observations from a re-analysis of the deposited data

Results flagged for a closer look

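Among 17 sets of values by array that were examined for a sample far from the others, 1 stood out: the ratio of Psmb6 on array 1, at -0.14, against 0.23 to 0.42 on the other arrays. Chance picks out about 1 in 20 such sets.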

How the results depend on the processing

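The alternatives with global loess and arrays left out were added after seeing the data. Counts are of member clones higher and lower, 7 and 2 as reported. They were 15 and 14 with global loess (30.4% of all clones passed) and 19 and 12 with median centring (32.9%). With the deposited value table they were 0 and 0 (45 at an unadjusted p under 0.05, limma), where 0.316% of all clones passed. Without a quality filter they were 0 and 0 (26 at that p), where 0 of 35970 clones passed. They were 8 and 1 when all 6 arrays were required (15.5% of all clones passed). Without arrays 2 and 4 they were 0 and 0 (12 at that p), where 0.34% of all clones passed. For gene means they were 4 and 0 (8.6% of all genes passed). Leaving out 1 array gave 0 to 12 higher and 0 to 3 lower, the 0 coming from arrays 2, 3, 4 and 6 (16, 18, 18 and 21 at that p), where 1, 1, 19 and 1 of all clones passed. These zeros follow the whole array. With global loess these counts were 16 and 14, 11 and 9, and 11 and 11 without arrays 1, 2 and 3. They were 6 and 5, 16 and 12, and 15 and 7 without arrays 4, 5 and 6. The share of all clones that passed was then 31.6%, 21.5%, 22.2%, 16.0%, 29.2% and 29.0% without arrays 1 to 6. Global loess without arrays 2 and 4 gave 3 and 2, where 8.59% of all clones passed. The median of 0.12 became 0.02 with global loess (0.02 over all clones), 1.19 in the value table (0.24 over all clones) and 0.01 with global loess and no array 2. Core minus regulatory, -0.03 as reported, was -0.18 with global loess, -0.13 with median centring and 0.31 in the value table, and with global loess -0.20, -0.17, -0.20, -0.18, -0.18 and -0.14 without arrays 1 to 6 and -0.20 without arrays 2 and 4. Psmd12 clone AU043387 turned from -0.35 to 0.00 with median centring and to 0.72 in the value table, and Psme3ip1 clone AI839824 from 0.81 to -0.50 there. The other 7 called clones kept their direction in all settings that measured them. The cause of these changes was not tested.

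The median red signal relative to the local background was lowest on arrays 2 and 4, and its bearing on the precision of their ratios was not tested. The limma array weight was lowest for array 6 (0.53), followed by arrays 4 (0.78) and 2 (0.85). A clone was tested with 4 to 6 values. The test of the ratio within each array already pairs the genotypes by array.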
